A study of Mus musculus with 11 samples.

Results

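Knockdown of Mettl14 was compared with a scramble control in aTC1-6, a glucagon-producing line of mouse alpha cells. The comparison used 7 of the 11 mRNA sequencing libraries of the study, namely the 4 labelled Mettl14 KD and the 3 labelled scramble control. The other 4 libraries, with knockdown of Mettl3, entered the fit to share one estimate of the spread, and were set against Mettl14 KD at the end. In every group the cells were reverse transfected, at a stated 70% confluency, and harvested after 72 h. No other genotype or agent is named for any group, and the kind of knockdown reagent was not stated in the labels. All genes with enough counts were examined, 14133 of 53947 gene rows. Because one cell line was used, the results describe that line. Nothing in the labels ties replicates to separate cultures, and the p-values then reflect only how far these libraries spread, which may be technical.

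METTL14 is the RNA-binding partner of METTL3 in the enzyme complex that writes N6-methyladenosine (m6A), the most common internal modification of messenger RNA. METTL3 carries the catalytic site, METTL14 holds the substrate RNA and stabilises the complex, and adaptor proteins such as WTAP, VIRMA, ZC3H13 and RBM15 place it on its targets. Reader proteins bind the mark and alter the decay, splicing or translation of the transcript, and the demethylases FTO and ALKBH5 remove it.

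Library totals ran from 19576632 to 22397894 counts over the 7 libraries. Scramble replicate 2 had the lowest total and stood apart from the rest: 24 markers of lung and blood summed to 147 CPM (counts scaled to a common library total) there and to between 4.26 and 7.5 in the other 6 libraries. Among them Sftpc, a surfactant gene of lung, reached 36.1 CPM in that library and at most 1.12 in the others. Counts of genes are therefore given with and without scramble replicate 2, and the part of those reads in other results was not tested beyond that. Defining genes of alpha cells were present: Gcg, which encodes glucagon, ranged from 29359 to 38342 CPM before TMM scaling (a trimmed-mean adjustment for library composition) and Ttr from 1077 to 1668. Ppy, Pdx1, Prss1 and Prss2 were at 0 in all 7 libraries and Ins2 was at most 0.0511 CPM, while Gc, a gene of primary alpha cells, was also at 0. In bulk libraries, fewer cells of a type and less RNA per cell cannot be told apart.

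Mettl14 itself was measured at 25.4, 23.5 and 26.8 CPM in the scramble libraries and at 14.9, 14.3, 15.5 and 13.9 CPM in the Mettl14 KD libraries (CPM here and below are TMM-scaled). The groups did not overlap, and the log2 fold change was -0.78 ± 0.06 (SE, adjusted p = 8.78e-09, edgeR quasi-likelihood test), so that 58.1% of the scramble level remained. Of the 8 genes of the writer complex, Rbm15 also fell (log2 fold change -0.19 ± 0.04, adjusted p = 0.00469) and the other 6 did not pass the test; 1 was higher without scramble replicate 1 or 3. Mettl3 was at 14, 14.7 and 16 CPM in scramble and at 15.9, 14.2, 16.5 and 15 CPM in Mettl14 KD, overlapping ranges (adjusted p = 0.692). Of the 2 demethylase genes Alkbh5 fell, from a mean of 149.5 ± 9.77 CPM (SD, n = 3) to 111.9 ± 5.04 (SD, n = 4), with a log2 fold change of -0.42 ± 0.04 (adjusted p = 8e-07). None of the 9 reader genes tested passed at an adjusted p of 0.05, and without scramble replicate 2 there was 1.

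Over all genes, 1424 were higher and 1532 lower in Mettl14 KD, together 20.9% of those tested (10.1% higher and 10.8% lower). Without scramble replicate 2, 1337 were higher and 1449 lower of 14316 tested (19.5%), and 2249 genes were called in the same direction both ways. Most changes were small: the median called gene was 1.14-fold higher or 1.2-fold lower. Past 1.5-fold, 224 genes were lower against 32 higher (221 and 30 without scramble replicate 2), and past 2-fold 80 against 5 (76 and 12). In 4090 genes (28.9%) the 3 scramble and 4 knockdown values did not overlap. With 2 scramble libraries, which overlap less easily, there were 5489 (38.8%). The calls depended on the level of the gene. When genes were ranked by mean level and cut into 4 equal bins, in the lowest bin 0.962% of genes were called higher and 5.83% lower, and in the highest 20.4% and 12.7%. Without scramble replicate 2 these shares were 1.02% and 4.84%, and 19.6% and 13.9%. By transcript length, the share of lower genes varied more than that of higher genes. Among genes whose longest annotated transcript was shorter than 1000 bases, 8.74% were higher and 3.81% lower (7.37% and 5.28% without scramble replicate 2), against 9.46% and 12% for those of 8000 bases or more (10.3% and 10.5%).

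**Figure D1:**
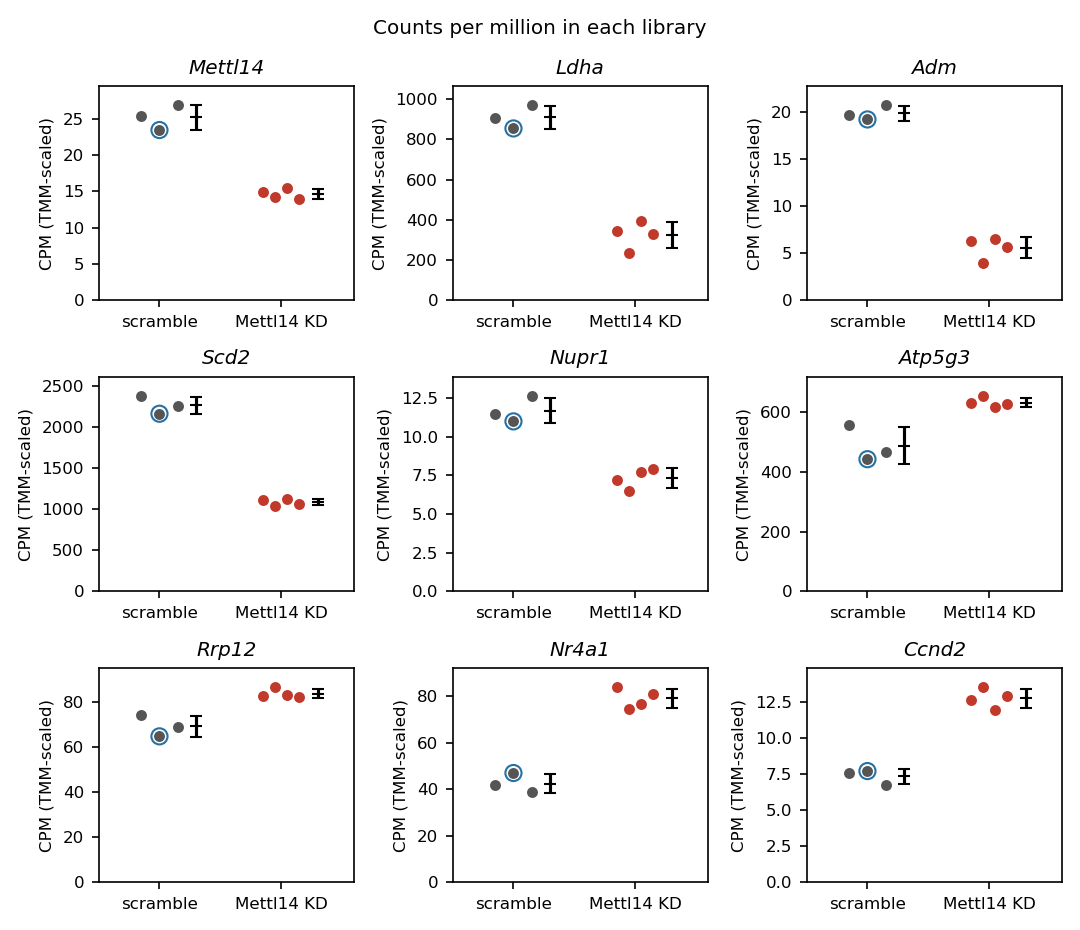
CPM, TMM-scaled, in each library for 9 genes (one panel per gene, linear axes from 0). Points are libraries, the open blue ring marks scramble replicate 2, and the bars to the right give the mean and SD; in each of the 9 panels the scramble and Mettl14 KD libraries do not overlap.

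Many of the largest decreases were in genes of the response to low oxygen. When oxygen falls, hypoxia-inducible factors (HIF) escape hydroxylation by the EGLN enzymes and degradation through VHL, pair with ARNT, and switch on genes of glycolysis, vessel growth and mitochondrial removal. Of 29 HIF target genes outside glycolysis, 26 had enough counts to test and all 26 fell (26 without scramble replicate 2), with a median log2 fold change of -0.68 against 0.00 for all genes. This list, like every list here, was chosen with earlier results of these data known, so its counts are descriptions and not tests. Car9, Stc2 and Ppfia4 had too few counts. Adm, which encodes the vasodilator peptide adrenomedullin, was at 19.6, 19.2 and 20.7 CPM in scramble and at 6.29, 3.98, 6.53 and 5.65 CPM in Mettl14 KD. Every knockdown library lay below every scramble library, and the log2 fold change was -1.82 ± 0.11 (adjusted p = 1.74e-09). Bnip3, a receptor for mitophagy, was at 371.5, 386.6 and 374.4 CPM in scramble and at 164.7, 126, 175.7 and 145.7 CPM in Mettl14 KD (log2 fold change -1.30 ± 0.11, adjusted p = 8.76e-05). Vegfa, the main angiogenic growth factor, was at 259.2, 240.1 and 246.9 CPM in scramble and within 162.7 to 166.8 CPM in the 4 knockdown libraries, 1.51-fold lower (adjusted p = 6.22e-11). Ndrg1, a stress-responsive gene, fell 2.25-fold (adjusted p = 6.22e-11) and Bhlhe40, a transcriptional repressor, 1.57-fold (adjusted p = 2.21e-10). The smallest change in the list was that of Wsb1, a ubiquitin ligase adaptor (log2 fold change -0.19 ± 0.05, adjusted p = 0.00653).

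Among these genes Mettl14 KD replicate 2 was the lowest of the 4 knockdown libraries in 23 of 26 and Mettl14 KD replicate 3 the highest in 19 of 26. Without Mettl14 KD replicate 2 all 26 still fell, and over the fits that left out 1 library the count was 25 or 26. Nrn1 was the 1 gene not called in every such fit.

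The promoters of these genes were searched for the core of the HIF-binding element, ACGTG, on both strands, in the window from 250 bases before to 50 after each RefSeq gene start (GRCm38.p6). The motif was present in 17 of 25 windows of the 19 list members that had one (68%), compared with 25.4% of the windows of all tested genes and 19.6% of all windows. A match shows only that these letters are present. The windows of the 2 members and the 1 glycolysis gene with the largest decreases that hold the motif are printed here to show where it lies, with each match in capitals (CACGT is the motif on the opposite strand). They are Selenbp1 at chr3:94932833-94933132 on the plus strand, Mgarp at chr3:51396498-51396797 on the minus strand and Slc16a3 at chr11:120948817-120949116 on the plus strand.
Selenbp1: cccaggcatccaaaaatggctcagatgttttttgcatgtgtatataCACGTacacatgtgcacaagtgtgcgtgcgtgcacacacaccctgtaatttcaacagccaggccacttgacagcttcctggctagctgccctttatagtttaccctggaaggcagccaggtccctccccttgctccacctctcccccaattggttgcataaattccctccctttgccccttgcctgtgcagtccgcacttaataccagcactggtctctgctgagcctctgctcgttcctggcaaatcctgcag
Mgarp: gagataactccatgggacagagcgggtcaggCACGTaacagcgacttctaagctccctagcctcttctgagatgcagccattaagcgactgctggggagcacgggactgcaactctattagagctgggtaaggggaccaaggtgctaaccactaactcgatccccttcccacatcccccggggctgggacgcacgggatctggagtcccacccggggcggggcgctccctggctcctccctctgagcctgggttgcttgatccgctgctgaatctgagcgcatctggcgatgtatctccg
Slc16a3: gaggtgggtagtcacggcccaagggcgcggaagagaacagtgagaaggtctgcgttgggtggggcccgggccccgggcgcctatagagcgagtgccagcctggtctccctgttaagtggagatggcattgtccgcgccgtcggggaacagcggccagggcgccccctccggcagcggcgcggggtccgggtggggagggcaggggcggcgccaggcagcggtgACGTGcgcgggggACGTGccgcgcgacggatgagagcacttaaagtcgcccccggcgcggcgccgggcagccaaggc
The motif began 204 bases before the start of Selenbp1 and 219 bases before that of Mgarp, and Slc16a3 held 2 copies, 27 and 14 bases before its start. Selenbp1, a methanethiol oxidase, was at 10.5, 12.6 and 12 CPM in scramble and at 3.17, 2.64, 4.37 and 3.75 CPM in Mettl14 KD (log2 fold change -1.74 ± 0.13, adjusted p = 7.33e-09). Mgarp, a mitochondrial protein, changed by -1.66 ± 0.17 on the log2 scale (adjusted p = 1.98e-06).

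Glycolysis fell along nearly its whole length. Of 24 genes, 19 were lower and 2 higher (20 and 2 without scramble replicate 2), with a median log2 fold change of -0.59. The motif ACGTG was present in 19 of 37 windows of 23 of these genes (51.4%). Glucose uptake carriers Slc2a1 (2.01-fold, adjusted p = 2.31e-06) and Slc2a3 (1.8-fold, adjusted p = 4.21e-07) were lower, as was Hk2, the inducible hexokinase (2.18-fold, adjusted p = 0.000572). Of the enzymes in between, Gpi1 was 1.48-fold lower (adjusted p = 1.74e-09), Aldoa 1.46-fold (adjusted p = 2.81e-09), Aldoc 2.67-fold (adjusted p = 1.81e-11) and Gapdh 1.32-fold (adjusted p = 1.15e-05). Ldha, which converts pyruvate to lactate, was at 906.7, 853.5 and 967.4 CPM in scramble and at 343.6, 235, 392.4 and 327.9 CPM in Mettl14 KD. The groups were far apart, and the log2 fold change was -1.49 ± 0.17 (adjusted p = 0.000455). Slc16a3, the lactate exporter, changed by the same amount (-1.49 ± 0.17, adjusted p = 0.000545). Ldhb, the isoform of lactate dehydrogenase that favours pyruvate, moved the other way, from 72.9, 67.2 and 76.3 CPM to 97.4, 97.1, 99 and 100.3 CPM (log2 fold change 0.45 ± 0.05, adjusted p = 7.09e-07). The 2nd higher gene, Pfkfb2, had overlapping ranges and was called in 5 of the 7 fits that left out 1 library; it was lost without scramble replicate 3 and without Mettl14 KD replicate 1. Mettl14 KD replicate 2 was the lowest knockdown library in 20 of the 24 genes. Hk2, Slc2a1, Slc2a3 and Gapdh were chosen for mention after their values were seen.

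The genes of the sensor itself did not share one direction. Hif1a was at 144.9, 163.3 and 134.1 CPM in scramble and between 145 and 153.2 CPM in Mettl14 KD, with no call (adjusted p = 0.938). Of the 7 HIF factors and sensors tested 2 were called higher and 1 lower (2 and 1 without scramble replicate 2, and 1 higher without Mettl14 KD replicate 2). The sensor gene Egln1 is not among these 7, because it was listed with the HIF targets, and it fell further than any of them (-0.71). Vhl fell (log2 fold change -0.30 ± 0.04, adjusted p = 6.9e-05). Arnt was 1.09-fold higher (adjusted p = 0.0207). Epas1 was not called with all libraries (log2 fold change 0.19, adjusted p = 0.373) and was called higher without scramble replicate 2 (0.44, adjusted p = 9.41e-05). Hif1a, Arnt and Epas1 were chosen after their values were seen. Prolyl and lysyl hydroxylases, oxygen-dependent enzymes that include the HIF sensors and the modifiers of collagen, had the lowest median of the 84 families examined (-0.49), and 6 of 12 fell and none rose (6 without scramble replicate 2, with 1 higher without scramble replicate 3 or Mettl14 KD replicate 3). The lowest log2 fold change in the family was -1.35, in a member not named here. The 4 with the smallest adjusted p were P4ha1 (log2 fold change -0.86 ± 0.06, adjusted p = 3.03e-08), Egln1 (-0.71 ± 0.06, adjusted p = 7.5e-07), P4ha2 (-0.59 ± 0.06, adjusted p = 4.35e-07) and Plod2 (-0.50 ± 0.04, adjusted p = 4.02e-08). These 4 genes are also in the list of HIF targets. Of 34 Polycomb, MLL and histone demethylase genes 11 fell and 3 rose (11 and 2 without scramble replicate 2, and 1 higher without Mettl14 KD replicate 1 or 2), and the lower ones with the smallest p were the demethylases Kdm3a (1.48-fold), Kdm4b (1.51-fold) and Kdm6b (1.42-fold).

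**Figure D2:**
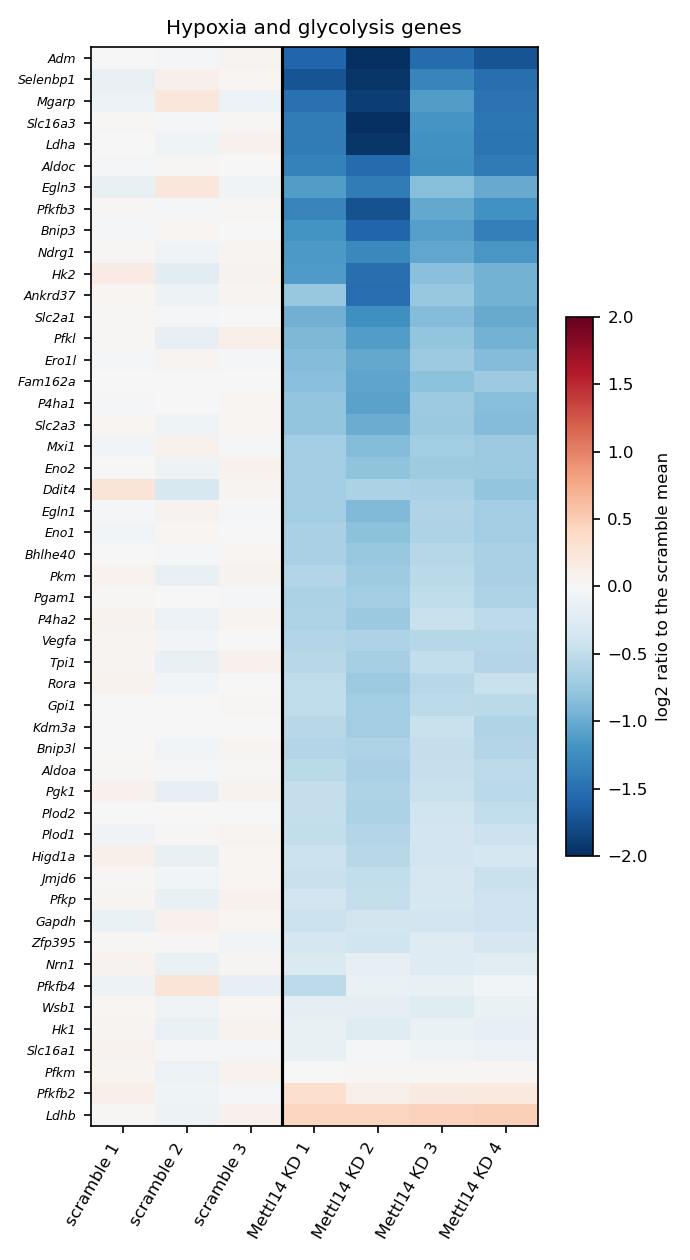
Each row is one of the 50 tested HIF target and glycolysis genes, each column a library, and the colour is the log2 ratio of its level (CPM plus 0.5) to the mean of the 3 scramble libraries, sorted by log2 fold change, with ratios beyond the ends of the scale given its end colour. All 26 HIF targets and 19 of 24 glycolysis genes were called lower, and Mettl14 KD replicate 2 was the lowest knockdown library in 23 of the 26.

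Mitochondrial fuel oxidation moved in the opposite direction, by smaller amounts. Of 32 genes for pyruvate entry and the tricarboxylic acid cycle, 17 rose and 5 fell (18 and 3 without scramble replicate 2, and 3 lower without Mettl14 KD replicate 2), with a median log2 fold change of 0.13. The largest decrease was in Pdk1, the kinase that blocks pyruvate dehydrogenase, which went from 119.8, 114.1 and 123.2 CPM to 56.1, 46.4, 59.9 and 53.3 CPM (log2 fold change -1.14 ± 0.08, adjusted p = 2.05e-06). Pdk2, a related kinase, fell 1.25-fold (adjusted p = 1.54e-05) and Pcx, pyruvate carboxylase, 1.11-fold (adjusted p = 0.00266). Sdhb, a subunit of succinate dehydrogenase, rose from 139.2, 148.3 and 143.3 CPM to between 170.7 and 184.2 CPM (log2 fold change 0.30 ± 0.03, adjusted p = 1.21e-06). Idh3a, a subunit of isocitrate dehydrogenase, rose 1.15-fold (adjusted p = 6.78e-05).

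In the respiratory chain, 22 of 39 nuclear-encoded complex I subunit genes rose and 1 fell (22 and 1 without scramble replicate 2, but 14 rose without Mettl14 KD replicate 1 and 13 without Mettl14 KD replicate 2). The median log2 fold change was 0.19, and 0.13 without scramble replicate 2. Ndufs1 rose 1.14-fold (adjusted p = 0.000407) and Ndufv1 1.16-fold (adjusted p = 0.000519), while Ndufv3 fell 1.16-fold (adjusted p = 0.00115). Of 17 ATP synthase subunit genes 13 rose and none fell (11 without scramble replicate 2), with a median of 0.19, and 0.14 without scramble replicate 2. Atp5g3, which encodes the membrane ring subunit, was at 556.8, 442.6 and 465.5 CPM in scramble and at 629.7, 652.5, 617.1 and 629 CPM in Mettl14 KD (log2 fold change 0.37 ± 0.06, adjusted p = 0.000992). Complex IV subunits had the highest family median, 0.20, yet 2 of 12 were called; the count was 6 and the median 0.09 without scramble replicate 2, and 5 were called without scramble replicate 1. Of 13 mitochondrially encoded genes tested 1 rose and none fell (1 and none without scramble replicate 2), with a median of 0.02. Fatty acid oxidation followed the direction of the nuclear-encoded subunits. Of its 18 genes 7 rose and none fell (6 without scramble replicate 2), among them the trifunctional protein genes Hadhb (1.16-fold, adjusted p = 7.65e-05) and Hadha (1.15-fold, adjusted p = 8.98e-05) and the carnitine shuttle enzyme Cpt1a (1.14-fold, adjusted p = 0.00172). Without scramble replicate 1, 1 gene of the list was also lower.

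The sterol and fatty acid synthesis genes fell together. SREBP transcription factors drive both sets when membrane sterol is low. Of 20 genes of sterol synthesis 18 fell and none rose (20 without scramble replicate 2), with a median log2 fold change of -0.41. Single members ran from -0.86 to -0.12. Of the 4 Mettl14 KD libraries, replicate 1 was the highest in 12 of the 20 genes, and replicates 2, 3 and 4 were each the lowest in 6. Fdps, farnesyl diphosphate synthase, was at 266.2, 253.6 and 269.6 CPM in scramble and at 179.7, 169, 174.3 and 174.9 CPM in Mettl14 KD (log2 fold change -0.59 ± 0.03, adjusted p = 6.22e-11). The later enzymes Nsdhl (1.48-fold), Msmo1 (1.46-fold) and Dhcr7 (1.45-fold) fell by similar amounts. Hmgcs1, an early enzyme of the pathway, changed by -0.48 ± 0.04 (adjusted p = 1.95e-08). The sterol element TCACNCCAC was present in 1 of 18 promoter windows of 15 of these genes, that of Hmgcs1, and in 1.1% of the windows of tested genes. It is shown in capitals in the RefSeq window chr13:119690101-119690400, plus strand, of GRCm38.p6, where it began 137 bases before the start.
Hmgcs1: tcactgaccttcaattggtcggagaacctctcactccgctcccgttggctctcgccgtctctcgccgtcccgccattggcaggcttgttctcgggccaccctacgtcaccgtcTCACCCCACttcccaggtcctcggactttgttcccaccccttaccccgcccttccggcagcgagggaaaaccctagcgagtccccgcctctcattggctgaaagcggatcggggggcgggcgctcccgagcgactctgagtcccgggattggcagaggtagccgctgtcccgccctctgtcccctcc
Of 20 sterol regulators and carriers 10 fell and none rose (11 and 1 without scramble replicate 2, and 1 higher without Mettl14 KD replicate 4). Srebf1, the SREBP gene most tied to fatty acids, fell 1.63-fold (adjusted p = 7.33e-08). The cholesterol exporter Abca1, known as an LXR target, also fell (1.58-fold, adjusted p = 1.77e-08), as did the receptor Lrp1 (1.54-fold, adjusted p = 4.32e-08).

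Among 20 genes of fatty acid synthesis, desaturation and elongation, 13 fell and 1 rose (13 and 1 without scramble replicate 2, and none higher without scramble replicate 3). The desaturases led them. Scd2 was at 2372, 2162 and 2259 CPM in scramble and at 1117, 1043, 1129 and 1068 CPM in Mettl14 KD, far apart. The log2 fold change was -1.06 ± 0.04 (adjusted p = 2.17e-14), close to that of Scd1 (-1.09 ± 0.04, adjusted p = 1.97e-14), and Fads2 fell 1.44-fold (adjusted p = 7.31e-10). Triglyceride and lipid droplet genes were mixed, with 5 of 15 lower and 2 higher (5 and 1 without scramble replicate 2, and 1 higher without Mettl14 KD replicate 2, 3 or 4). Dgat1, which makes triglyceride, rose 1.14-fold (adjusted p = 0.00827). Lpin1, a phosphatidate phosphatase, fell 1.65-fold (adjusted p = 1.32e-10) and Hilpda, a lipid droplet protein induced by hypoxia, 1.88-fold (adjusted p = 2.09e-09).

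Most listed targets of ATF4, the transcription factor of the amino acid and integrated stress response, were also lower. Of 17 tested genes 13 fell and none rose (14 without scramble replicate 2), with a median log2 fold change of -0.32. Trib3, a pseudokinase, was at 14.6, 15.9 and 15.5 CPM in scramble and at 8.56, 7.44, 10.7 and 8.27 CPM in Mettl14 KD (log2 fold change -0.81 ± 0.09, adjusted p = 1.69e-06). Ppp1r15a, which guides the dephosphorylation of eIF2alpha, fell 1.29-fold (adjusted p = 4.97e-07), Vldlr, a lipoprotein receptor, 1.5-fold (adjusted p = 1.29e-06) and Eif4ebp1, a repressor of translation, 1.38-fold (adjusted p = 1.08e-05). The amino acid element TTGCATCA was present in 5 of 17 promoter windows (29.4%) and in 0.594% of the windows of tested genes. Nupr1, a stress-induced chromatin protein, had the largest decrease among the genes that hold it. Its RefSeq window, chr7:126625421-126625720 on the minus strand of GRCm38.p6, has the element in capitals 110 bases before the start. Only that element is marked, and the window also holds ACGTG. That motif was present in 29.4% of the windows of this list, against 25.4% of those of all tested genes.
Nupr1: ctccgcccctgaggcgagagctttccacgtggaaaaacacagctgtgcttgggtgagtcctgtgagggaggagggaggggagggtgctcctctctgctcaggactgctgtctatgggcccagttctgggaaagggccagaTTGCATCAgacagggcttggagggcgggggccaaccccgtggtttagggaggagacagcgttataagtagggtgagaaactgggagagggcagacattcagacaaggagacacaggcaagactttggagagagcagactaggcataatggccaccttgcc
Nupr1 was at 11.5, 11 and 12.6 CPM in scramble and at 7.2, 6.48, 7.7 and 7.91 CPM in Mettl14 KD (log2 fold change -0.67 ± 0.11, adjusted p = 0.000117). Related lists did not shift in the same way. Serine, one-carbon and asparagine synthesis genes had 3 of 15 lower and 2 higher (4 and 2 without scramble replicate 2), with a median of -0.02. Amino acid transporters had 5 of 21 lower and 4 higher (3 and 4 without scramble replicate 2), with a median of -0.07. Chaperones of the endoplasmic reticulum showed no such shift, with 3 of 26 higher and 2 lower (3 and 5 without scramble replicate 2, 5 and 4 without scramble replicate 1, and 4 lower without Mettl14 KD replicate 3).

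Many genes of the protein production machinery rose by small amounts, though not in every list. Of 36 ribosome biogenesis genes, which make and process ribosomal RNA in the nucleolus, 24 rose and none fell (24 without scramble replicate 2), with a median log2 fold change of 0.15. Rrp12 was at 74.2, 64.9 and 69.1 CPM in scramble and between 82.5 and 86.6 CPM in Mettl14 KD (log2 fold change 0.27 ± 0.04, adjusted p = 5.98e-05). Heatr1 and Tsr1, both small-subunit processing factors, rose 1.17-fold (adjusted p = 5.96e-05 and 8.76e-05), and the nucleolar helicase Ddx21 rose 1.16-fold (adjusted p = 0.000126). Cytosolic ribosomal proteins had 24 of 81 higher and none lower (24 without scramble replicate 2, 38 without scramble replicate 1), and mitochondrial ribosomal proteins 29 of 79 (25 higher and 1 lower without scramble replicate 2). The cytosolic median was 0.15, and 0.09 without scramble replicate 2. The shares higher were 66.7%, 29.6% and 36.7% in these 3 groups, against 10.1% of all genes and 20.4% in the highest level bin. Aminoacyl-tRNA synthetases had 4 of 20 higher and 1 lower (3 and 2 without scramble replicate 2). DEAD and DEAH helicases had 21 of 49 higher and none lower (16 and 1 without scramble replicate 2). Proteasome subunits had 17 of 38 higher and none lower (15 without scramble replicate 2, but 10 without Mettl14 KD replicate 2 and 8 when only scramble and Mettl14 KD libraries were fitted), with Psmb10 at 1.29-fold (adjusted p = 0.000132) and Psmd12 at 1.17-fold (adjusted p = 0.000338). Ribosomal protein genes have many near-identical pseudogenes, so their estimated counts are less certain.

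RNA-binding motif genes had 11 of 34 higher and 3 lower, but 4 and 3 without scramble replicate 2, and 7, 5 and 6 higher without Mettl14 KD replicates 1, 2 and 4. RNA polymerase subunits had 7 of 28 higher and 2 lower (5 and 2 without scramble replicate 2, and 11 higher without scramble replicate 1); the lower count was 0 or 1 in each of the other fits that left out 1 library. SR proteins and hnRNPs, which choose splice sites, had 8 of 30 higher and none lower (8 and 1 without scramble replicate 2, 13 higher without scramble replicate 1), led by Srsf7 (1.16-fold, adjusted p = 0.000438). Cytosolic heat shock chaperones had 10 of 24 higher and 2 lower (11 and 2 without scramble replicate 2), with the chaperonin subunit Cct3 at 1.15-fold higher (adjusted p = 0.000177) and Hspa4l at 1.22-fold lower (adjusted p = 2.28e-06).

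**Figure D3:**
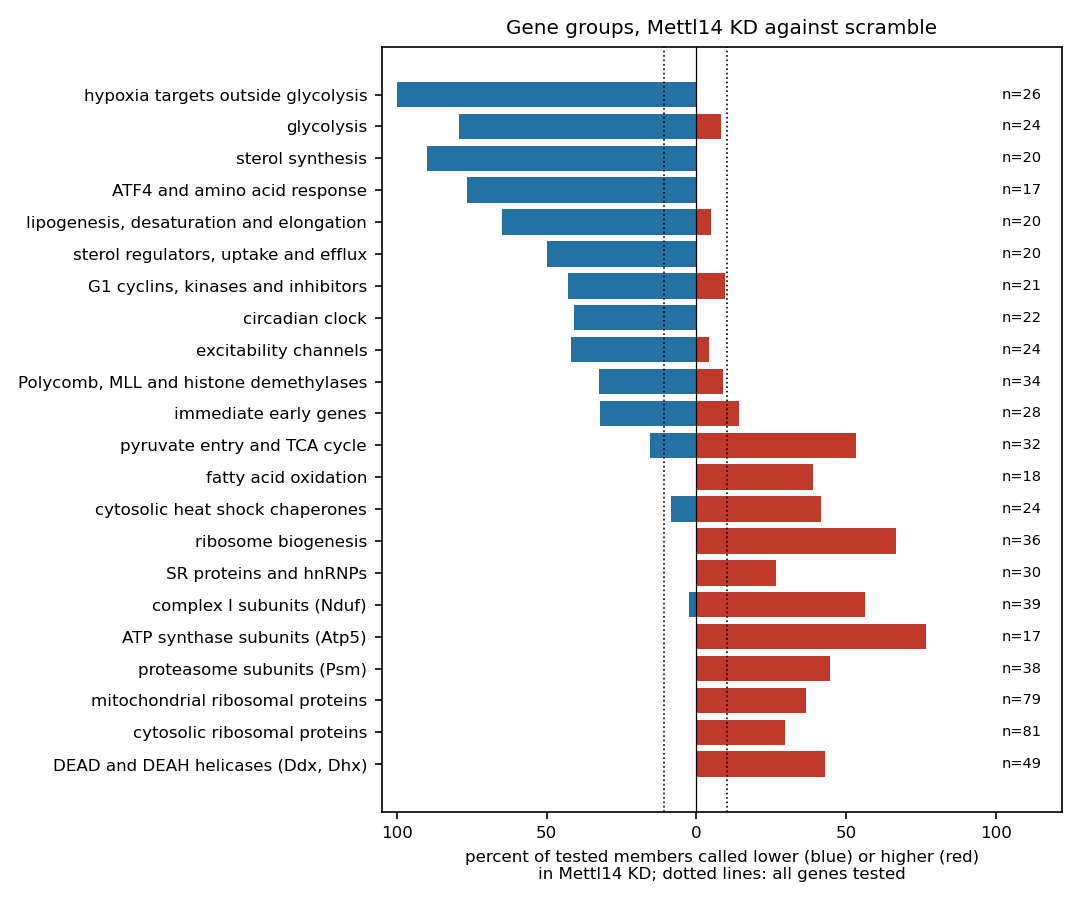
Percent of the tested members of 22 gene groups called lower (blue, to the left) or higher (red, to the right) in Mettl14 KD, with the number tested at the right. The groups were chosen with earlier results of these data known. Dotted lines mark the shares of all genes, 10.8% lower and 10.1% higher; HIF targets, glycolysis and sterol synthesis reach 100%, 79.2% and 90% lower, and ATP synthase 76.5% higher.

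Alpha cell genes moved in both directions. Gcg was at 36053, 28738 and 36317 CPM in scramble and between 36419 and 38728 CPM in Mettl14 KD, with no call (log2 fold change 0.15 ± 0.07, adjusted p = 0.15, and 0.04 without scramble replicate 2). Of 20 genes for prohormone processing and secretory granules 7 rose and 2 fell (8 and 3 without scramble replicate 2, and 1 lower without scramble replicate 3 or Mettl14 KD replicate 2). The granule protein Scg2 rose 1.17-fold (adjusted p = 0.000165) and the zinc transporter Slc30a8 1.14-fold (adjusted p = 7.46e-05), while the granin Vgf fell from 299.6, 326.9 and 285.4 CPM to between 214.3 and 228.7 CPM (log2 fold change -0.45 ± 0.05, adjusted p = 1.11e-06). Of 23 alpha cell transcription factors 7 fell and 1 rose (6 and 1 without scramble replicate 2). Of 16 surface and secreted markers of alpha cells 5 rose and 3 fell (4 and 3 without scramble replicate 2). Among them Ttr, transthyretin, rose 1.37-fold (adjusted p = 9.38e-06). The shares called were 45% of the granule list and 50% of the surface markers. That of all genes was 20.9%, and that of the highest level bin 33.1%.

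In the lists of alpha cell receptors and of excitability channels, more genes fell than rose. The shares called were 50% and 45.8%, against 20.9% of all genes. Of 18 G protein-coupled receptor genes tested 8 fell and 1 rose (8 and 1 without scramble replicate 2, with none higher in 4 of the 7 fits that left out 1 library, those without scramble replicate 1 and without Mettl14 KD replicates 1, 2 and 3). Gipr, the receptor for the incretin GIP, was low throughout, at 1.45, 1.4 and 2.29 CPM in scramble and 0.724, 0.24, 0.811 and 0.497 CPM in Mettl14 KD (log2 fold change -1.58 ± 0.30, adjusted p = 0.000825). Ffar4, a receptor for long-chain fatty acids, fell 1.84-fold (adjusted p = 1.77e-08). The family of orphan receptor genes (Gpr) showed no such excess, with 2 of 29 lower and 1 higher, 10.3% called (4 and 1 without scramble replicate 2). Of 24 excitability channel genes 10 fell and 1 rose (7 and 2 without scramble replicate 2, and 2 higher without Mettl14 KD replicate 1). The background potassium channel gene Kcnk16 fell 1.23-fold (adjusted p = 5.23e-05) and the pacemaker channel gene Hcn2 1.28-fold (adjusted p = 0.00107). Over all potassium channel genes 8 of 36 fell and 4 rose (6 and 4 without scramble replicate 2, and 5 lower without Mettl14 KD replicate 2).

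Regulators of growth and the cell cycle moved in both directions. Of 21 G1 genes 9 fell and 2 rose (10 and 2 without scramble replicate 2). Ccnd2, cyclin D2, rose from 7.57, 7.7 and 6.73 CPM to 12.6, 13.5, 11.9 and 12.9 CPM (log2 fold change 0.80 ± 0.08, adjusted p = 5.15e-07). Ccnd3, cyclin D3, fell by 0.45 on the log2 scale, and the inhibitors Cdkn1a and Cdkn1b fell by 0.47 and 0.22. DNA replication genes had 2 of 35 lower and none higher (4 and 1 without scramble replicate 2, and 2 and 1 higher without scramble replicate 3 and Mettl14 KD replicate 3). Immediate early genes, the first to answer a stimulus, had 9 of 28 lower and 4 higher (9 and 4 without scramble replicate 2). Nr4a1, an orphan nuclear receptor, was at 41.7, 47 and 38.7 CPM in scramble and at 83.7, 74.6, 76.6 and 81 CPM in Mettl14 KD (log2 fold change 0.90 ± 0.07, adjusted p = 1.79e-07), while Ier3 fell 1.8-fold (adjusted p = 5.12e-10) and Jun 1.41-fold (adjusted p = 2.48e-06). Of 22 circadian clock genes 9 fell and none rose (7 without scramble replicate 2), led by the repressors Bhlhe40 and Ciart (1.51-fold, adjusted p = 2.23e-06). Forkhead factors had the highest share of lower genes among families of transcription factors described here, 11 of 21, with none higher, but 8 lower and 2 higher without scramble replicate 2, and 7, 5 and 7 lower without Mettl14 KD replicates 1, 2 and 4. Foxo3 was 1.38-fold lower (adjusted p = 1.79e-07). By share called, G1 genes reached 52.4%, immediate early genes 46.4%, clock genes 40.9% and forkhead factors 52.4%, against 20.9% of all genes. DNA replication genes were below that, at 5.71%.

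Some low medians came with scramble replicate 2. Extracellular matrix and integrin genes had a median of -0.52 with it and -0.04 without it, interferon-inducible genes -0.48 and -0.11, and collagens -0.31 and -0.03. The 7 lung and blood markers that could be tested had a median of -2.91 with it and -0.02 without it, and none was called either way, while 4 were lower without scramble replicate 1 or 3, which leaves scramble replicate 2 more weight. Of the interferon and MHC class I list, 6 of 22 fell and 1 rose, and 3 and 2 without that library. The HIF target median was -0.68 and -0.67, and the ribosome biogenesis median 0.15 and 0.12.

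**Figure D4:**
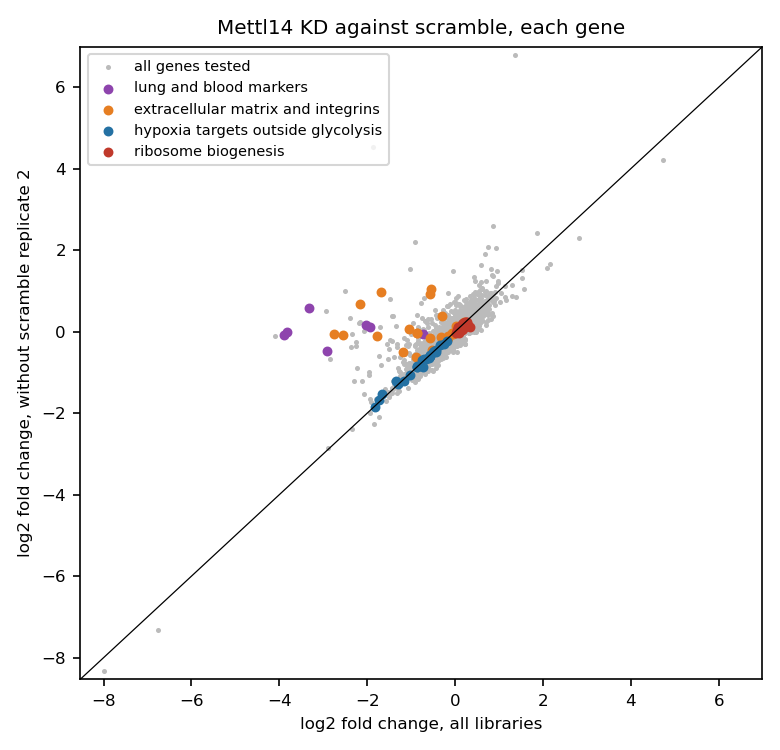
Log2 fold change of each gene in Mettl14 KD against scramble with all libraries (horizontal axis) and without scramble replicate 2 (vertical axis), with the diagonal drawn. HIF targets (blue) and ribosome biogenesis genes (red) lie along the diagonal, while most of the 7 lung and blood markers (purple) and several extracellular matrix genes (orange) lie well above it.

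Of the 84 gene families with at least 10 tested members, 22 met the rule for description. The other 62 had medians between -0.16 and 0.11 and 0% to 31.2% of members called. Among those described and not yet mentioned, semaphorins and plexins met the rule by their low median (-0.23). They had 5 of 21 lower and none higher (5 and 2 without scramble replicate 2), and the 23.8% called was near the 20.9% of all genes. The families that follow met the rule by their share called. Histones had 4 of 11 lower and 1 higher, and E2F factors 4 of 10 lower and none higher. Without scramble replicate 2, 3 of each were lower and none higher, and no histone was higher without Mettl14 KD replicate 1, 3 or 4. VPS trafficking proteins had 9 of 35 higher and 3 lower (9 and 1 without scramble replicate 2). Regulators of protein phosphatase 1 had 7 of 31 lower and 3 higher (8 and 2 without scramble replicate 2, and 1 higher without Mettl14 KD replicate 2 or 3). They included Ppp1r3b, which directs the phosphatase to glycogen, at 2.13-fold lower (adjusted p = 9.43e-08). Dual-specificity phosphatases had 5 of 20 lower and 2 higher (4 and 2 without scramble replicate 2, 3 lower without scramble replicate 3 or Mettl14 KD replicate 1, 3 or 4, and 1 higher without Mettl14 KD replicate 2). Aldehyde dehydrogenases had 5 of 15 lower and none higher (2 lower without scramble replicate 2 or Mettl14 KD replicate 2, 3 or 4, and 1 higher without the last). Cyclin-dependent kinases had 4 of 18 lower and 2 higher (2 and 3 without scramble replicate 2, and 2 lower without Mettl14 KD replicate 1, 2 or 3).

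The largest single decrease was that of Sprr1a, a cornified envelope gene induced by injury, which was 5.05-fold lower (8.93, 8.2 and 9.15 CPM against 1.58 to 1.85 CPM, adjusted p = 2.64e-10). Colgalt2, a collagen galactosyltransferase, fell 2.88-fold (adjusted p = 5.46e-07), Ak4, a mitochondrial adenylate kinase, 2.7-fold (adjusted p = 1.35e-07), Pfkfb3, an activator of glycolysis, 2.48-fold (adjusted p = 0.000169) and Stc1, a secreted glycoprotein, 2.47-fold (adjusted p = 3.89e-08). Increases were smaller. After Nr4a1 they were led by the potassium channel gene Kcnh1 (1.79-fold), the homeobox gene Zfhx2 (1.75-fold), Ccnd2, the synaptic adhesion gene Lrrc4 (1.73-fold), the guanylate cyclase receptor Gucy2c (1.7-fold) and the matrix link protein Hapln1 (1.61-fold). Hapln1 was at 68.4, 66.8 and 66.9 CPM in scramble and at 106.7, 109, 105.8 and 112.3 CPM in Mettl14 KD (adjusted p = 6.22e-11). Below these came Ccdc80, Nme4, Rmdn2, Arhgap6 and Mir22hg, between 1.53-fold and 1.6-fold higher.

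Both knockdowns were set against the same scramble libraries, so the question of where they differed was put to the direct comparison. It called 628 genes higher and 517 lower in Mettl14 KD than in Mettl3 KD (8.10% of 14133). These counts were unsteady: they were 1091 and 1034 without scramble replicate 2, which is in neither of the groups compared. The higher count was between 414 and 469 without any 1 knockdown library, lowest without Mettl14 KD replicate 1. The lower count was 322, 315, 322 and 306 without Mettl14 KD replicates 1, 2, 3 and 4, and 290, 355, 338 and 278 without Mettl3 KD replicates 1, 2, 3 and 4. The targeted genes differed in the direction of the labels. Mettl14 averaged 14.7 ± 0.72 CPM (SD, n = 4) in its own knockdown and 29.3 ± 1.02 CPM (SD, n = 4) in Mettl3 KD (edgeR adjusted p = 2.48e-10). Mettl3 was higher in Mettl14 KD than in Mettl3 KD by 1.53 on the log2 scale (edgeR adjusted p = 1.25e-10). Few members differed in the lists with the largest decreases against scramble: 1 higher and 1 lower of 26 HIF targets, 1 and 2 of 24 glycolysis genes, 1 and 1 of 20 sterol synthesis genes and 1 and 1 of 17 ATF4 targets. Without scramble replicate 2 these were 1 and 3, 2 and 1, 5 and 2, and 3 and 2. Other lists described above differed more. Granule and prohormone processing genes had 6 of 20 higher and 2 lower (11 and 2 without scramble replicate 2, and 3 to 6 higher and at most 1 lower without any 1 knockdown library). Circadian clock genes had 5 of 22 higher and 1 lower (6 and 1 without scramble replicate 2, and 4 or 5 higher and none lower without any 1 knockdown library). A difference that misses the threshold does not show that the knockdowns act alike. The Ldha difference was -0.13 (adjusted p = 0.71) and the Adm difference -0.02 (adjusted p = 0.959). Mitochondrial ribosomal proteins had 17 of 79 lower in Mettl14 KD and none higher (28 without scramble replicate 2, and 11 to 15 without any 1 knockdown library). Exocytosis genes had 9 of 33 higher and 1 lower (10 and 1 without scramble replicate 2), and the granin gene Vgf was 0.43 higher in Mettl14 KD than in Mettl3 KD (adjusted p = 5.11e-06).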

How the data were processed

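Messenger RNA was measured in 11 libraries, 3 scramble, 4 Mettl3 KD and 4 Mettl14 KD, grouped by the sample titles. The authors deposited 1 table of expected (estimated) counts per Ensembl gene. Per the submitters' processing notes the tool was kallisto (no version), while its build, annotation and summing of transcripts to genes were not given in the sources used here. Expected counts, as deposited, were rounded to whole numbers (11.6% were not whole). Reads shared between near-identical genes are divided by estimation, which adds uncertainty to families such as ribosomal proteins.

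Genes kept by filterByExpr (minimum count 10) were tested with edgeR 4.0.16 in R 4.3.3: TMM scaling, all 11 libraries in one fit with a mean per group, robust quasi-likelihood F-tests, Benjamini-Hochberg adjustment over all genes at 0.05, 8 residual degrees of freedom. "Higher", "lower", "rose" and "fell" in counts mean past that threshold. Each SE was taken as the size of the log2 fold change over the root of its F value, an approximation. The procedure was tested on simulated data. Symbols matched 13731 of the 14133 tested genes. Lengths came from GENCODE transcripts and promoter windows from RefSeq, GRCm38.p6, which may not be the authors' build.

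The comparison, the 73 gene lists and the 99 family patterns were chosen with earlier results of these data known. Some genes that the naming rule selects are not reported here. Families with 10 or more tested members were described if among the 5 highest or 5 lowest medians or if the share called was at least 1.5 times that of all genes. Named genes were Mettl14, Mettl3 and Gcg, the 12 largest changes each way, and up to 4 members per list (3 per direction where both occurred) with the smallest adjusted p. Apart from those 3 genes, they had to be called in each of the 7 fits that left out 1 scramble or Mettl14 KD library, and those named by size also needed a mean count of at least 50 and groups that did not overlap. Genes named outside this rule are Hk2, Slc2a1, Slc2a3, Gapdh, Pfkfb2, Hif1a, Arnt, Epas1, Hmgcs1, Nupr1, Nrn1, Wsb1 and markers, chosen after their values were seen. Alternatives were other filters, RLE factors, DESeq2 1.42.0, limma-voom 3.58.1, a replicate block, fewer libraries and leaving out each library.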

Additional observations from a re-analysis of the deposited data

Results flagged for a closer look

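Among the 4 Mettl14 KD libraries, 5 of the 110 genes examined had 1 library set further from its nearest neighbour, as a share of the group's range, than Dixon's critical value allows; chance gives about 1 in 20. Gpi1 was at 757.5 CPM in Mettl14 KD replicate 2 and between 847 and 862.7 in the others, all below scramble. Psmd12 was at 167.9 CPM in Mettl14 KD replicate 2 against 158.3 to 159.7. Dhcr7 was at 79.03 CPM in Mettl14 KD replicate 3 against 81.08 to 81.36. Foxo3 was at 41.11 CPM in that library against 38.01 to 38.33. Ppp1r3b was at 3.616 CPM in Mettl14 KD replicate 4 against 4.503 to 4.663.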

How the results depend on the processing

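Against scramble, 1424 genes were higher and 1532 lower, and these counts stayed within 1.5 times under 18 alternatives: leaving out 1 library gave 1061 to 1510 higher and 1215 to 1581 lower, DESeq2 1225 and 1242, and the fit with only scramble and Mettl14 KD libraries 984 and 1285. The Mettl14 log2 fold change ran from -0.83 to -0.73 without 1 library. Same-numbered scramble and Mettl14 KD libraries did not deviate together (correlations -0.0428, -0.118 and -0.0116). These pairs are too few to exclude a pairing, and scramble replicate 2 is among them. With the replicate block, 1073 genes were higher and 1262 lower. Proteasome subunits called higher numbered 9 with that block, 8 with only scramble and Mettl14 KD libraries, and 10 to 18 without 1 library. Complex I subunits called higher numbered 13 to 24 without 1 library. Against Mettl3 KD, fitting only the 2 knockdowns gave 1119 higher and 1068 lower, and leaving out 1 library gave 414 to 1091 and 278 to 1034; the cause was not tested. Of 104 named genes with a call, 101 kept it in every alternative that gave an adjusted p; the naming rule required most of this, so it is no measure of stability. Arnt, Nrn1 and Pfkfb2 did not. No value reversed. By level, 6.79% of the lowest of 4 level bins were called, against 33.1% of the highest.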
